A study of Sus scrofa with 599 samples.

Results

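Greater omentum (GOM) and mesenteric adipose (MAD) were compared in adult female pigs of the Bama miniature breed on the normal diet (NC). Both depots are visceral adipose tissues (VATs) of the same animals, taken as whole flash-frozen tissue, and no pig in this comparison had been genetically modified. The comparison was defined by depot and diet group alone: it held 9 GOM and 12 MAD RNA-seq samples, which are 21 of the 236 RNA-seq samples of the series, and 9 GOM and 12 MAD Hi-C samples, which are 21 of its 240 Hi-C samples. Each depot difference is given as GOM over MAD, so a positive log2 fold change is higher in GOM. The same depots of pigs that had gained weight on a high-fat diet (WG, 45 GOM and 36 MAD RNA-seq samples), and of pigs put on caloric restriction after such a gain (WL, 10 and 10 samples), served as further samples of the same contrast. None of these libraries was shared with the NC comparison.

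The omentum is a fat-bearing fold of peritoneum that hangs from the stomach. It is covered by mesothelium and carries clusters of immune cells known as milky spots. Mesenteric fat surrounds the vessels, lymphatics and nerves that run to the intestine. Visceral fat shares a developmental history with the mesothelium, and the transcription factor WT1 marks that lineage. Nuclear chromatin divides into an active A and an inactive B compartment, and the A-B index measures the balance between them in each 20-kb bin, with a positive value for A.

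Adipocyte genes were abundant in both depots. ADIPOQ, which encodes the hormone adiponectin, was at 966 to 2681 TPM (transcript abundance scaled to a fixed library total) in GOM and 1510 to 7691 TPM in MAD, so the tissue labels held for fat in every library. Of 9 intestinal epithelium markers with a symbol, LGALS4 alone passed the expression filter and reached at most 2.86 TPM in a library, and of 10 pancreas markers CELA2A alone passed and reached at most 16.2 TPM. The libraries differed in type as well as in depot. In 7 GOM and 2 MAD libraries, protein-coding genes (PCGs) took 74.8 to 81.5% of the summed TPM over all transcript classes counted, and their PCG counts totalled 7835504 to 9933673. In the other 2 GOM and 10 MAD libraries this share was 91.9 to 96.5% and the totals were 14372009 to 21140387. The 88% limit between the sets entered the test as a term, and the 2 GOM libraries of the high-share set were replicates 6 and 10. Because the sets were so unevenly split, a depot difference rests mainly on few libraries of 1 depot in each set.

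Of 14197 PCGs tested, 632 were higher in GOM (4.45%) and 431 were higher in MAD (3.04%) with an adjusted p under 0.05 and a change of over 1.5 times; these are called DEGs below. The median log2 fold change over all tested PCGs was -0.03. In 82 of the 632 DEGs higher in GOM, the lowest GOM library lay above the highest MAD library, compared with 84 PCGs in all (0.592%). The reverse held for 13 of the 431 DEGs higher in MAD and for 15 PCGs in all (0.106%). The counts depended on the term and on single libraries. With no set term, 1453 PCGs (10.2%) were higher in GOM and 1064 (7.49%) in MAD. In high-share libraries alone, 197 (1.39%) and 10 (0.0704%) were. Without GOM replicate 6 the counts were 223 and 88, without GOM replicate 10 they were 383 and 113, and without MAD replicate 7 they were 546 and 252.

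**Figure D1:**
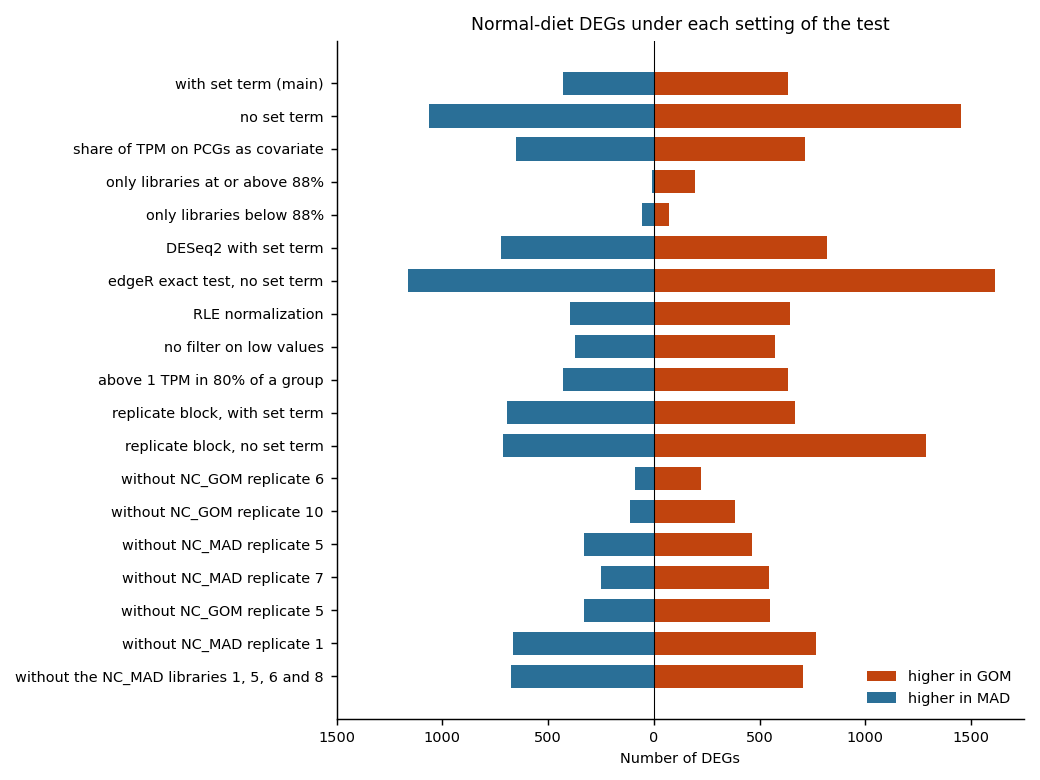
Number of DEGs between GOM and MAD on the normal diet under each setting of the test, with bars to the right for PCGs higher in GOM and bars to the left for PCGs higher in MAD. The count higher in GOM runs from 74 with low-share libraries alone to 1613 with the exact test and no set term, and the count higher in MAD from 10 to 1163.

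Several transcription factors of the visceral lineage separated the depots without overlap. Among 30 listed factors, 17 were tested, 6 were higher in GOM, 2 were higher in MAD and 9 were not called, with a median log2 fold change of 0.30 beside -0.03 over all tested PCGs. Without GOM replicate 6, 4 were higher in GOM and 1 in MAD. The 6 were ISL1, BARX1, BNC1, WT1, GATA6 and SOX6, and the 2 were NKX2-3 and FOXF1. GATA5, a GATA factor of heart and gut development outside the list, was among the 12 DEGs with the largest difference in each direction.

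ISL1, a LIM-homeodomain factor of heart and motor neuron development, was at 2.01, 7.87 and 12.5 TPM (lowest, median and highest) in GOM and at 0, 0.177 and 0.592 TPM in MAD. No MAD library reached the lowest GOM library, and the log2 fold change was 5.07 ± 0.48 (SE, adjusted p = 9.37e-07). GATA5 was at 5.53, 9.95 and 29.9 TPM in GOM and at 0, 0.152 and 1.86 TPM in MAD, again without overlap (log2 fold change 5.15 ± 0.83, adjusted p = 0.000531). WT1 was at 31.9, 71.8 and 130.2 TPM in GOM and at 6.004, 8.46 and 16.2 TPM in MAD. All MAD libraries therefore expressed WT1, below every GOM library (log2 fold change 3.13 ± 0.25, adjusted p = 2.11e-07). BARX1, a homeobox factor of stomach development, ranged from 1.16 to 5.55 TPM in GOM and from 0 to 0.403 TPM in MAD (log2 fold change 4.84 ± 0.56). GATA6 ranged from 14.6 to 55.8 TPM in GOM and from 2.65 to 13.9 TPM in MAD (log2 fold change 2.17 ± 0.33, adjusted p = 0.000314). These 5 factors were also DEGs among high-share libraries alone and among low-share libraries alone, and in each comparison that left out 1 library of a small set. GATA6, NKX2-3, FOXF1 and SOX6 were named after their values were seen.

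NKX2-3, a homeobox factor of gut and spleen mesenchyme, went the other way. It was at 0.711, 1.70 and 3.05 TPM in GOM and at 3.18, 9.77 and 24.5 TPM in MAD. The groups did not overlap, and the log2 fold change was -2.33 ± 0.40 (adjusted p = 0.000828). FOXF1, a forkhead factor of visceral mesoderm, overlapped between the depots, at 1.96 to 3.94 TPM in GOM and 2.64 to 24.9 TPM in MAD (log2 fold change -1.67 ± 0.44, adjusted p = 0.0219), and it was no longer called without any 1 of GOM replicates 6 and 10 and MAD replicate 5, nor without MAD replicates 1, 5, 6 and 8 together (-0.84). TCF21, a factor of visceral fat progenitors, was not called, with a log2 fold change of -0.47 ± 0.39 (adjusted p = 0.479).

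The A-B index at the start differed between the depots for 5 transcription factors chosen for display after their values were seen. Among them is IRX3, which is described further below. It also differed at FOXF1 and BNC1, which are not displayed. The 250 bases before the RefSeq start of each of the 5 are shown. They are from Sscrofa11.1 and read 5′ to 3′ on the strand of the gene, from chr2:28411217-28411466 for WT1, chr16:30962744-30962993 for ISL1, chr6:107282459-107282708 for GATA6, chr14:110720134-110720383 for NKX2-3 and chr6:31044669-31044918 for IRX3, all on the plus strand. Capitals mark matches on either strand to any of 5 motifs. The first is TATAAA, known from core promoters. The second is CCAAT, which the factor NF-Y is known to bind. The third is GGGCGG, which Sp1 and related factors are known to bind. The fourth is AGATAA, which GATA factors are known to bind. The fifth is GCGTGGG, which EGR factors and WT1 are known to bind.
WT1: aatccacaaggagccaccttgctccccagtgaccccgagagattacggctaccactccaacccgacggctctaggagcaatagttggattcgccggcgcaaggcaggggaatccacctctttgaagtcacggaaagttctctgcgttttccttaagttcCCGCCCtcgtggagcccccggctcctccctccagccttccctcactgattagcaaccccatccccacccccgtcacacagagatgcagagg
ISL1: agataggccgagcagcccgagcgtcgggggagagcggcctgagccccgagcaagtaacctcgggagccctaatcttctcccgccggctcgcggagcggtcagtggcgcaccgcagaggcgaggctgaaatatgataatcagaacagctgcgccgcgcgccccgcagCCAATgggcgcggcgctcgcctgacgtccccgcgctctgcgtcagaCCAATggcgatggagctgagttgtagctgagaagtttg
GATA6: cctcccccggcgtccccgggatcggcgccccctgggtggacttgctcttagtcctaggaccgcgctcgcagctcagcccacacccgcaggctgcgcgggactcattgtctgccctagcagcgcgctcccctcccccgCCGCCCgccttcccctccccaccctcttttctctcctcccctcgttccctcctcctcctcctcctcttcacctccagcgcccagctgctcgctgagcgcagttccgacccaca
NKX2-3: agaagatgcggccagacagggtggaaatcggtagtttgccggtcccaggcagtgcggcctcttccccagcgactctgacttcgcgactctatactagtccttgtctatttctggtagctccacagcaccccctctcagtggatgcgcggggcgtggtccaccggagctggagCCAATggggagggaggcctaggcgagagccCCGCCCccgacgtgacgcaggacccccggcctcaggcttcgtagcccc
IRX3: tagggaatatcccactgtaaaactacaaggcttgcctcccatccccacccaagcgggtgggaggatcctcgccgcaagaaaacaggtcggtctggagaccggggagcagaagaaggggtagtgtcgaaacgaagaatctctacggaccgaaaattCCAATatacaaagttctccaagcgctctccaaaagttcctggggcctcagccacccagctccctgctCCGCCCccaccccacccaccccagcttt
The matches were to CCAAT, which 31.8% of the 13512 promoters of the same length hold, and to GGGCGG, which 53.1% hold. The share with CCAAT was 30.9% among DEGs higher in GOM and 37.9% among those higher in MAD, and the share with AGATAA was 5.99 and 7.18% beside 6.79% of all promoters. These shares are descriptions of the letters in this window.

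Most tested markers of mesothelium were higher in GOM. Of 20 listed, 10 were tested, 8 were higher in GOM and none in MAD, with a median log2 fold change of 3.65. UPK1B, a uroplakin of the mesothelial surface, was at 21.6, 37.5 and 114 TPM in GOM and at 0.104, 1.43 and 16.5 TPM in MAD, with no overlap (log2 fold change 4.05 ± 0.80, adjusted p = 0.0029). GPM6A, a membrane glycoprotein, did not overlap either, at 52.3 to 244 TPM in GOM and 0.860 to 31.3 TPM in MAD (log2 fold change 4.26 ± 0.67). KRT8, a keratin of simple epithelia, was at 31.5, 101.7 and 178 TPM in GOM and at 0.654, 2.70 and 42.5 TPM in MAD, where replicate 6 alone passed the lowest GOM library (log2 fold change 3.86 ± 0.82). BNC1, KRT7, DSP, CLDN15 and EFEMP1 made up the other DEGs. EZR, which encodes the membrane linker ezrin and was singled out after its values were seen, was at 131 to 458 TPM in GOM and 23.2 to 135 TPM in MAD (log2 fold change 2.62 ± 0.36). The summed level of the tested mesothelial markers was 415 to 996 TPM in GOM and 154 to 312 TPM in MAD, so it did not overlap between the depots. EFEMP1 made up the largest part of this sum, with means of 337 TPM in GOM and 168 TPM in MAD. In whole tissue, more cells of a type and more RNA per cell cannot be told apart. Without GOM replicate 6, 3 of the 8 markers remained DEGs.

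**Figure D2:**
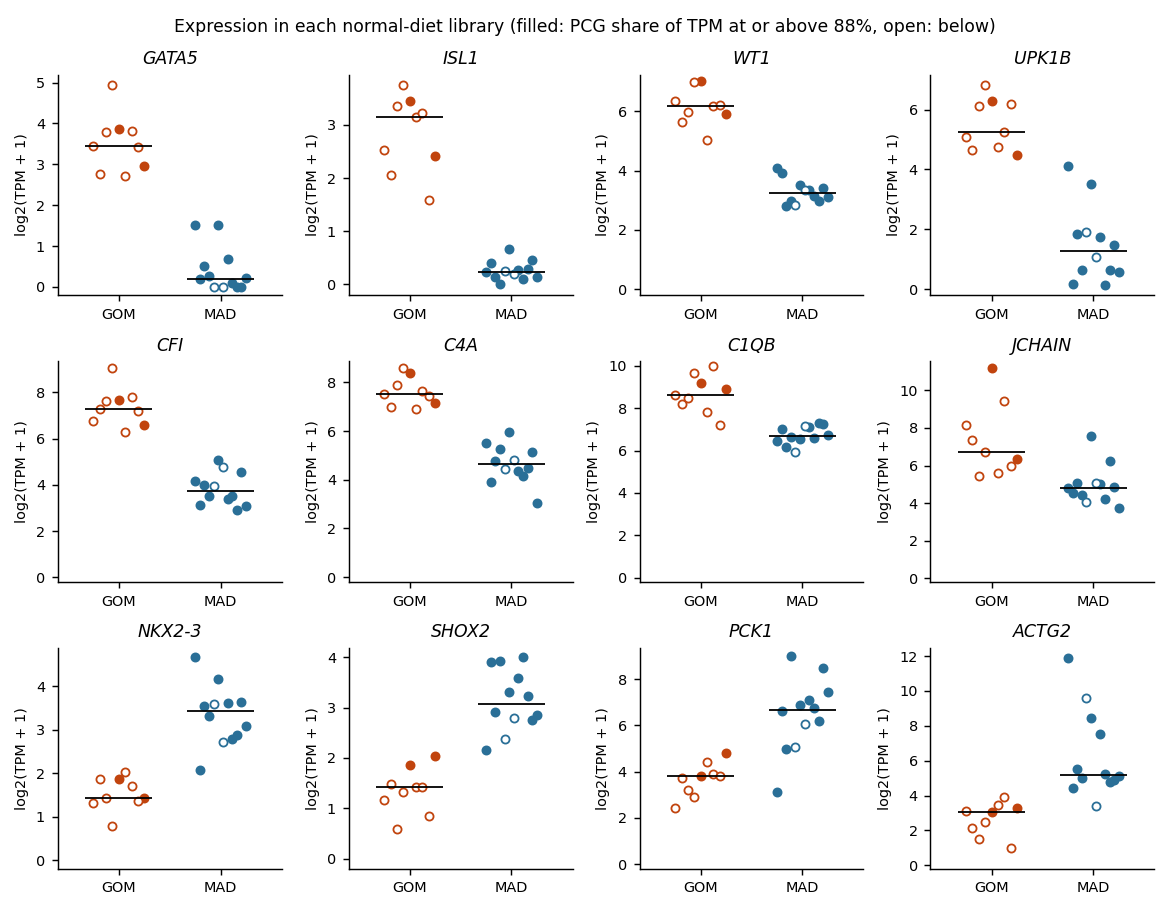
Expression of 12 genes in each library as log2(TPM + 1), with filled points for libraries of the high-share set, open points for the low-share set and a bar at the median. GATA5, ISL1, WT1, UPK1B, CFI and C4A are higher in all 9 GOM libraries than in any of the 12 MAD libraries, NKX2-3 and SHOX2 are lower in all of them, and JCHAIN and ACTG2 are each led by few libraries.

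Genes of the complement cascade, the blood-borne arm of innate immunity, were higher in GOM for 6 of 12 tested members and higher in MAD for none, with a median log2 fold change of 0.71. CFI, the protease that inactivates C3b and C4b, was at 77.9, 153 and 522 TPM in GOM and at 6.61, 12.5 and 32.2 TPM in MAD (log2 fold change 3.25 ± 0.35, adjusted p = 7.12e-06). C4A was at 118, 186 and 384 TPM in GOM and at 7.26, 23.98 and 62.0 TPM in MAD (log2 fold change 2.96 ± 0.33), and reads of near-identical C4 copies could not be told apart by name. C3, the central component, was at 239, 458 and 1515 TPM in GOM and at 12.6, 75.0 and 139 TPM in MAD (log2 fold change 2.44 ± 0.40, adjusted p = 0.00064). None of these 3 genes overlapped between the depots. CFB, the protease of the alternative pathway convertase, overlapped (15.2 to 179.6 TPM against 2.14 to 30.5 TPM) and was close to the limit, with a log2 fold change of 1.74 ± 0.54 and an adjusted p of 0.0479. C2 and SERPING1, the C1 inhibitor, were the other DEGs. Without any 1 of GOM replicates 5, 6 and 10 or MAD replicate 5, 4 members were called.

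Other signalling genes were mixed. LGR5, the R-spondin receptor of stem cells, had the largest log2 fold change of all named DEGs higher in GOM, at 5.53 ± 0.48 (adjusted p = 2.88e-07), with 2.04 to 11.4 TPM in GOM and 0.0415 to 0.559 TPM in MAD. RSPO1 and RSPO3, its ligands, were higher in GOM by log2 fold changes of 1.80 ± 0.44 and 1.16 ± 0.25, as were WNT5A (1.18 ± 0.32) and WNT9A, whereas the WNT antagonist SFRP1 was higher in MAD (-1.17 ± 0.30). Of 15 tested WNT ligands and modulators, 4 were higher in GOM and 1 in MAD, with a median log2 fold change of 0.16. A single WNT gene was called without GOM replicate 6. In the retinoic acid pathway, 3 of 17 tested members were higher in GOM and 2 in MAD, with a median of -0.24 (0.05 with no set term). Without GOM replicate 6, GOM replicate 10 or MAD replicate 7 the counts were 2 and 1. ALDH1A2, which makes retinoic acid from retinaldehyde, was at 59.0, 100 and 172 TPM in GOM and at 24.05, 38.9 and 60.8 TPM in MAD, and 2 MAD libraries passed the lowest GOM library (log2 fold change 1.65 ± 0.23, adjusted p = 0.000144). RXRG, a retinoid X receptor, was higher in MAD (log2 fold change -1.70 ± 0.35), as was BCO1, which cleaves beta-carotene (-1.01 ± 0.29). FN1, which encodes fibronectin, was higher in GOM at 325 to 4326 TPM against 30.2 to 340 TPM, and it was the sole DEG higher in GOM among 19 tested collagen and matrix genes. FBN1 (fibrillin), COL5A2 and TNC (tenascin C) of that list were higher in MAD, by log2 fold changes of -1.24, -1.05 and -2.31, and 1 of these 3 was called without GOM replicate 6.

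Patterning genes of limb and subcutaneous fat were higher in MAD where they were called. Of 10 tested, SHOX2 and IRX3 were higher in MAD, none was higher in GOM, and the median log2 fold change was -0.96. SHOX2, a homeobox factor of limb and heart, was at 0.507, 1.68 and 3.11 TPM in GOM and at 3.49, 7.47 and 15.1 TPM in MAD, without overlap (log2 fold change -1.91 ± 0.32, adjusted p = 0.000725). IRX3, an Iroquois homeobox factor linked to adipocyte metabolism, was at 0, 0.584 and 1.83 TPM in GOM and at 1.15, 3.92 and 8.53 TPM in MAD (log2 fold change -2.37 ± 0.51, adjusted p = 0.00614). Of 21 tested HOX genes, HOXC8 was higher in MAD (log2 fold change -3.01 ± 0.60, adjusted p = 0.00335) and the other 20 were not called, with a median of -0.36. HOXC8 was unevenly spread, from 0.714 to 16.5 TPM in MAD with its highest value in a low-share library, beside 0.0524 to 1.06 TPM in GOM. EN1, another homeobox factor, stayed below the expression filter, at up to 0.174 TPM in GOM and 1.07 TPM in MAD. PI16, a marker of the stem-like progenitors of the fat interstitium, was higher in MAD, at 34.8, 173 and 341 TPM against 32.996, 43.8 and 73.1 TPM (log2 fold change -2.12 ± 0.36, adjusted p = 0.000777). Among 14 tested progenitor genes MFAP5 was also higher in MAD, DCN and PDGFRA were higher in GOM by less than 1 log2 unit, and the median was -0.14. Of these 4, 1 was called without GOM replicate 6.

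Of the listed adipocyte and lipogenic genes, some were higher in MAD and none was higher in GOM. Of 17 tested genes of adipocyte identity, all had a negative log2 fold change, 7 were DEGs higher in MAD and the median was -1.04. Of 15 tested genes of de novo lipogenesis, all were negative, 10 were DEGs higher in MAD and the median was -1.16. PCK1, the enzyme of glyceroneogenesis, was at 4.44, 12.8 and 26.9 TPM in GOM and at 7.68, 101 and 511 TPM in MAD, and a single MAD library, replicate 1, lay within the GOM range (log2 fold change -2.63 ± 0.63, adjusted p = 0.0128). GPD1, which supplies glycerol 3-phosphate, was at 45.5 to 88.6 TPM in GOM and 34.5 to 406 TPM in MAD (log2 fold change -1.71 ± 0.39). SCD, the stearoyl-CoA desaturase, overlapped widely, at 45.7 to 730 TPM in GOM and 16.3 to 1361 TPM in MAD (log2 fold change -2.25 ± 0.69, adjusted p = 0.0446). ADIPOQ overlapped as well (log2 fold change -1.05 ± 0.32, adjusted p = 0.0438), and PPARG, the master regulator of adipocytes, was not called (-0.26 ± 0.23, adjusted p = 0.511). These calls were fragile: without GOM replicate 6, 0 adipocyte and 5 lipogenic genes were called, without GOM replicate 10 the counts were 2 and 4, and without MAD replicate 7 they were 2 and 6. Without MAD replicate 5, 3 lipogenic genes were called, and without MAD replicate 1 12 genes of each list were. Outside the lists, the desaturase SCD5, named after its values were seen, was a DEG higher in GOM (log2 fold change 1.91).

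Of the listed immune genes, some were higher in GOM and none was higher in MAD. Of 19 tested macrophage markers, 9 were higher in GOM, none in MAD, and the median log2 fold change was 1.07. C1QB, a C1q chain made by tissue macrophages, was at 149, 395 and 1028 TPM in GOM and at 59.6, 101.7 and 155 TPM in MAD, with overlap at a single GOM library, replicate 9 (log2 fold change 2.11 ± 0.33, adjusted p = 0.000338). TIMD4, a receptor of resident macrophages that take up dying cells, was at 1.70, 12.9 and 54.1 TPM in GOM and at 0, 1.53 and 4.48 TPM in MAD (log2 fold change 3.12 ± 0.62). MARCO, a scavenger receptor, and VSIG4, a complement receptor, were higher by log2 fold changes of 4.42 ± 0.81 and 1.89 ± 0.40. Among 17 tested T cell genes 4 were higher in GOM (median 0.90), among them CD2 (1.39 ± 0.27) and the T cell receptor subunit CD3E (1.25 ± 0.24). Among 11 tested B and plasma cell genes 3 were higher in GOM (median 0.81), namely BANK1 (1.498 ± 0.27), CD22 (0.81 ± 0.24) and JCHAIN. JCHAIN, which joins IgA and IgM units, was at 42.1, 103 and 2311 TPM in GOM and at 12.4, 27.1 and 192 TPM in MAD. Its highest value was in GOM replicate 6, and without that library JCHAIN was no longer called (adjusted p = 0.24). TNFSF13B, a survival factor of B cells, and CLU were the 2 called among 6 lymphoid tissue genes, and neither was called without GOM replicate 6 or 10. Without GOM replicate 6 the macrophage, T cell and B cell counts were 4, 2 and 1, and without GOM replicate 10 they were 5, 3 and 2. Without MAD replicate 5 6 macrophage genes were called. The summed macrophage level was 889 to 3540 TPM in GOM and 447 to 1267 TPM in MAD.

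Of the 12 DEGs with the largest difference higher in MAD, 5 were on the smooth muscle list. ACTG2, the actin of visceral smooth muscle, was at 0.961, 7.40 and 14.3 TPM in GOM and at 9.64, 35.3 and 3814 TPM in MAD (log2 fold change -6.07 ± 1.32, adjusted p = 0.00621). The high values came from few libraries: MAD replicates 1, 5, 6 and 8 held 3814, 779, 343 and 187 TPM, and the other 8 held 9.64 to 44.2 TPM. DES, CNN1, MYH11 and MYLK, further genes of contractile muscle, had log2 fold changes of -4.88, -4.44, -3.99 and -3.43, and MYH11 ran from 44.3 to 5531 TPM in MAD beside 29.5 to 72.0 TPM in GOM. PCP4, a calmodulin regulator, and KCNMB1, a subunit of the muscle BK channel, were highest in replicates 1, 5 and 6 as well. In all, 5 of 11 tested smooth muscle markers were higher in MAD, with a median of -1.71 and a summed level of 443 to 827 TPM in GOM and 590 to 21150 TPM in MAD. Without MAD replicates 1, 5, 6 and 8 none of the 11 was called, and ACTG2 was at -1.603 with an adjusted p of 0.0884. Without MAD replicate 5 alone none was called, and without MAD replicate 1 alone 7 were. Without the same 4 libraries, which were left out after seeing the data, NKX2-3, SHOX2, IRX3, HOXC8, PCK1 and PI16 were DEGs higher in MAD. The part of smooth muscle RNA in the other MAD differences was not tested. Of 7 tested nerve and glia genes, UCHL1 and GFAP were higher in MAD, with a median of -1.43 over the list, and neither GOM replicate 6 nor 10 could be left out without losing both.

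The remaining lists held few calls. Among 8 tested lymphatic genes PDPN was higher in GOM (log2 fold change 1.6 ± 0.32), and podoplanin is also made by mesothelium. None of 11 blood endothelial, 11 proliferation, 4 erythroid or 13 mitochondria-encoded genes was called, with medians of -0.35, 0.57, -1.35 and -0.01. FOSB was higher in MAD among 17 tested immediate early genes (log2 fold change -2.12 ± 0.58, adjusted p = 0.0254, median of the list -0.47). PDPN and FOSB were not called without GOM replicate 6.

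**Figure D3:**
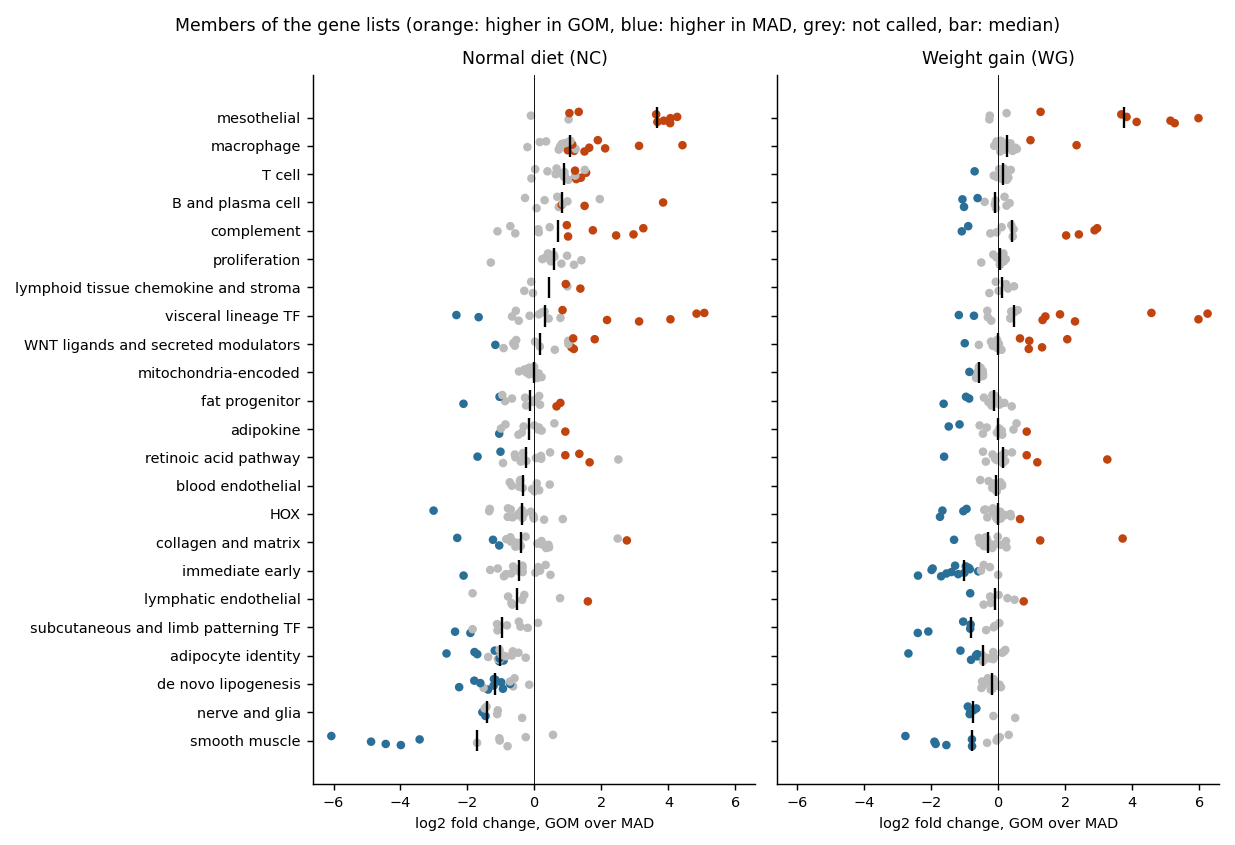
Log2 fold change (GOM over MAD) of each tested member of the gene lists with at least 6 tested members, on the normal diet at left and in the weight-gain libraries at right, coloured by call, with a bar at the median of the list. Mesothelial genes lie to the right in both panels, at medians of 3.65 and 3.75, whereas the medians of lipogenesis (-1.16 and -0.18) and macrophage genes (1.07 and 0.27) are nearer to 0 in WG.

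The contrast was then read in other pigs. In WG, where 76 of 81 libraries were of the high-share set, 498 of 13744 tested PCGs were higher in GOM (3.62%) and 344 in MAD (2.5%). Of the NC DEGs higher in GOM, 610 were tested in WG and 259 of them were called the same way, which is 42.5% of those tested and 52.0% of the WG calls of that direction. Of the NC DEGs higher in MAD, 426 were tested and 82 were called the same way, which is 19.2% of those tested and 23.8% of the WG calls. No NC DEG was called the opposite way in WG. In WL, where 3.99% of tested PCGs were higher in GOM and 1.99% in MAD, 249 of 623 and 47 of 421 were called the same way and 8 of those higher in GOM were called the opposite way.

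Of 17 tested visceral lineage factors, 7 were higher in GOM and 2 in MAD in WG, and 9 and 1 in WL. Of 12 tested complement genes, 4 were higher in GOM and 2 in MAD in each of WG and WL, with medians of 0.41 and 0.07. SOX6, FOXF1, C2 and SERPING1, which were NC DEGs, were not called in WG. In WG the log2 fold changes were 4.57 for ISL1, 5.41 for GATA5, 2.29 for WT1, 6.25 for BARX1, 1.32 for GATA6, 5.27 for UPK1B, 2.95 for CFI and 2.02 for C3, all DEGs, and the mesothelial list had 7 of 10 tested members higher in GOM. In WL the same 8 genes were again DEGs higher in GOM, at 5.17, 6.08, 3.10, 6.64, 1.42, 6.09, 3.56 and 2.11. SHOX2 (-2.41), IRX3 (-2.09), NKX2-3 (-1.18), PCK1 (-2.69), PI16 (-1.63) and HOXC8 (-1.67) were DEGs higher in MAD in WG, and of these PCK1 missed the limit in WL (-0.72, adjusted p = 0.538). Of 17 tested immediate early genes, 13 were higher in MAD in WG and 1 on the normal diet, and the interaction test called 1 of them.

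Few immune and lipogenic genes were called in WG. None of 15 lipogenic genes, 6 of 17 adipocyte genes, 2 of 19 macrophage genes and no gene of the T cell or B cell lists were called in the NC direction, and 1 T cell and 3 B cell genes were higher in MAD. In WL no macrophage, T cell or B cell gene was higher in GOM, and 1 T cell and 4 B cell genes were higher in MAD. The WL medians were -0.10 for macrophage, -1.52 for T cell and -1.52 for B cell genes. No lipogenic gene was called in WL (median -0.03). Of 17 adipocyte genes, 1 was higher in GOM in WL and none in MAD (median -0.21). In WG SCD was at 0.08 (adjusted p = 0.9) and C1QB at 0.38 (adjusted p = 0.0452, below the fold limit). The difference between the NC and WG contrasts was tested as an interaction, which called 2164 of 14197 PCGs (15.2%) with the set term and 872 (6.14%) without it. With the set term it called 8 of 19 macrophage genes, 4 of 17 T cell genes and 4 of 11 B cell genes, but 1 of 15 lipogenic genes. TIMD4 (difference 3.47, adjusted p = 0.000192) and C1QB (1.98, adjusted p = 0.000133) were among the macrophage genes. With no set term the interaction called 7 macrophage, 0 T cell, 4 B cell and 0 lipogenic genes. Of 11 tested smooth muscle genes, 6 were higher in MAD in WG and 6 in WL, with medians of -0.79 and -1.26. The interaction called 8 of the 11 with the set term and 7 without it. In high-share libraries alone, which keep GOM replicates 6 and 10, the edgeR quasi-likelihood test called 0 PCGs, with 2150 at an unadjusted p below 0.05 and a smallest adjusted p of 0.0574. Diet, library set and the pigs that made up each group cannot be told apart in these differences.

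**Figure D4:**
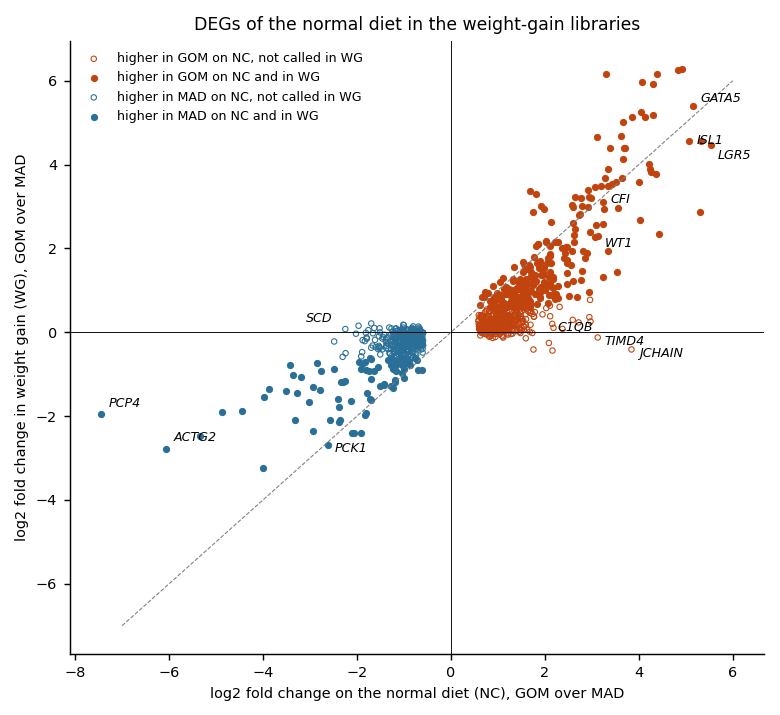
Log2 fold change (GOM over MAD) of each NC DEG on the normal diet (horizontal axis) and in the weight-gain libraries (vertical axis), filled where the PCG was also a DEG of the same direction in WG, with the line of equal values dashed. GATA5, ISL1 and WT1 lie near the line at upper right, TIMD4 and JCHAIN lie at -0.12 and -0.41 in WG, and PCP4 and ACTG2 are nearer to 0 in WG than on the normal diet.

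The A-B index was compared in 113298 bins over the autosomes. It passed the limma test at an adjusted p below 0.05 in 6519 bins (5.75%) that were higher in GOM and 10551 bins (9.31%) that were higher in MAD, with a median difference over all bins of -0.09. A/B switches, defined by opposite signs in over 80% of the samples of each depot, numbered 72 to A in GOM (0.0635% of bins) and 245 to A in MAD (0.216%). A/B variables, which keep their compartment but differ by more than 0.75, numbered 3081 higher in GOM (2.72%) and 3824 higher in MAD (3.38%). After quantile normalization, which left a median difference of -0.03, the switches were 141 and 179 and the variables 3750 and 2836, so the direction that held more variables turned with the scaling.

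Switches were short and held few genes. Of 65 runs of adjacent bins to A in GOM, 59 were single bins and the longest had 3, at chr7:19840001-19900000, where RIPOR2 starts. The mean index over that run was 0.226 to 1.48 in GOM and -1.08 to 0.520 in MAD, and RIPOR2, a regulator of RhoA, was at 8.75 to 13.97 TPM in GOM and 4.58 to 9.70 TPM in MAD (log2 fold change 0.55, adjusted p = 0.0182, below the fold limit). Of 178 runs to A in MAD, 138 were single bins and the longest had 12, or 240 kb, at chr5:64900001-65140000. Over it the GOM samples lay between -1.52 and -0.304 and the MAD samples between 0.181 and 1.70, so no sample crossed. NTF3, the neurotrophin that starts there, was at 0 to 3.25 TPM in GOM and 0.549 to 3.03 TPM in MAD and was not called (log2 fold change -0.56 ± 0.59). Of 13 tested PCGs that start in a bin switched to A in MAD, NTN4 (netrin 4) and TSPAN12 were higher in MAD and none was higher in GOM. NTN4, named after its values were seen, had an index of -1.91, -1.07 and 0.0630 (lowest, median and highest) in GOM and -0.604, 1.02 and 1.51 in MAD, and a log2 fold change of -0.998 ± 0.24.

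The index at the starts of DEGs is given beside that of all tested PCGs. Of 10430 tested PCGs with a start in a bin, 5.09% were in bins higher in GOM and 6.29% in bins higher in MAD. Of 482 DEGs higher in GOM with a bin, 119 (24.7%) were in bins higher in GOM and 19 (3.94%) in bins higher in MAD, with a median index difference of 0.27, against -3.8e-05 over all tested PCGs. Of 335 DEGs higher in MAD, 50 (14.9%) were in bins higher in MAD and 6 (1.79%) in bins higher in GOM, with a median of -0.12. After quantile normalization these medians were 0.23 and -0.16 beside -0.07. RNA and Hi-C came from separate libraries of the same depots. In the paper's Hi-C protocol, fixed tissue was spun and its adipocyte layer was lysed, whereas no such step is described for RNA. The mix of cells behind each measure may therefore differ, which was not tested. In all, 92 DEGs with a symbol were also A/B switches or variables, 81 of them in the same direction.

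The bins around 6 genes, chosen after their values were seen, were examined further. The bin at the start of WT1 had an index of 0.468, 2.43 and 3.25 in GOM and -1.49, 0.449 and 1.52 in MAD (difference 1.98 ± 0.37, adjusted p = 0.00136), and it was positive in 9 of 9 GOM and 8 of 12 MAD samples. ISL1 was in the B compartment in most samples, at -1.17, -0.334 and 0.311 in GOM and -2.52, -1.93 and -1.56 in MAD, without overlap (difference 1.64 ± 0.18, adjusted p = 1.83e-05). GATA6 differed by 1.25 ± 0.33 (adjusted p = 0.014). In the 25 bins within 240 kb of each start, 22 bins at WT1, 25 at ISL1 and 24 at GATA6 were higher in GOM by the test. NKX2-3 was higher in MAD, at -0.645, 0.219 and 0.761 in GOM and 0.940, 2.13 and 2.52 in MAD (difference -1.89 ± 0.21, adjusted p = 2.47e-05), with 14 of 25 bins called. IRX3 (difference -1.11 ± 0.16, 23 of 25 bins) and FOXF1 (-1.26 ± 0.22) were higher in MAD as well. MYH11 did not overlap in the index either, at 1.51 to 2.59 in GOM and 2.88 to 3.96 in MAD (difference -1.42 ± 0.17, 25 of 25 bins). Its expression overlapped only at MAD replicates 7 and 10, at 60.6 and 44.3 TPM beside 29.5 to 72.0 TPM in GOM. BARX1 and GATA5 were not called in the index, with differences of -0.13 ± 0.15 and 0.54 ± 0.23 (adjusted p = 0.574 and 0.106).

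**Figure D5:**
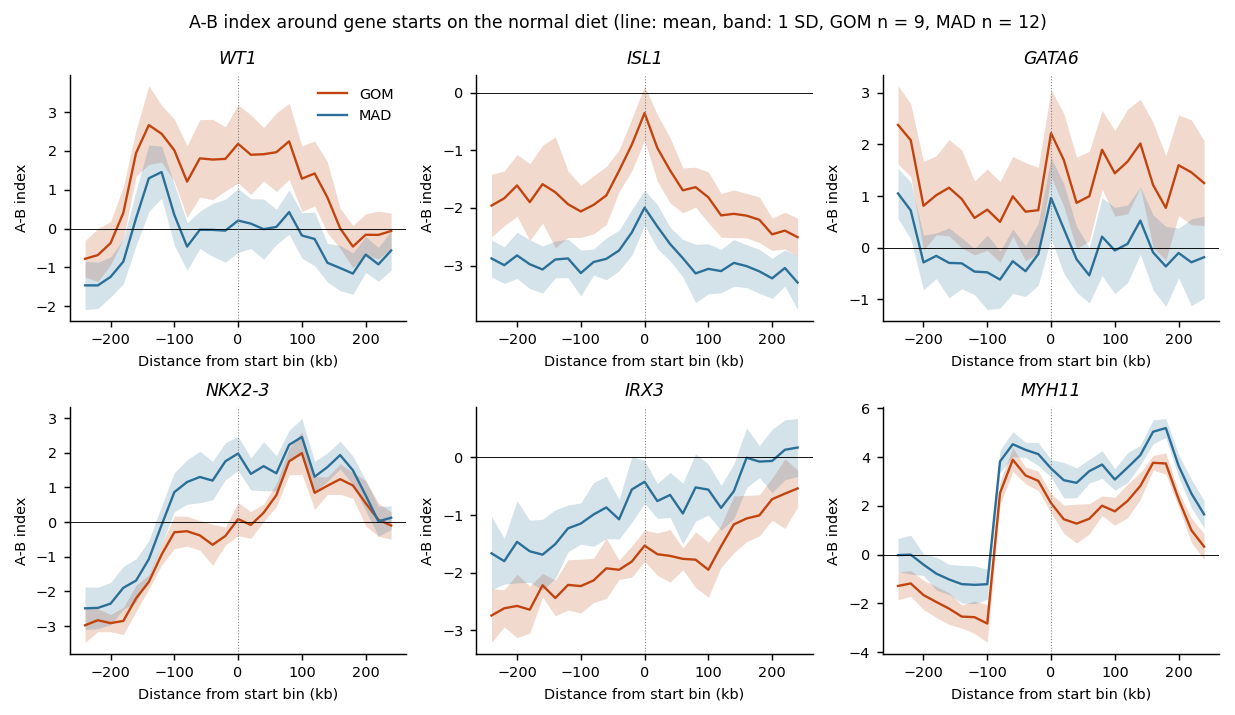
A-B index by distance (kb) from the bin that holds the start of 6 genes, as the mean over 9 GOM and 12 MAD samples with a band of 1 SD. The GOM line runs above the MAD line around WT1, ISL1 and GATA6, and below it around NKX2-3, IRX3 and MYH11.

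Other DEGs with an index difference at the start included LGR5 (0.80 ± 0.22, in the B compartment in all 21 samples), ST6GAL2 (1.66 ± 0.26), CFI (0.90 ± 0.25), ALDH1A2 (1.18 ± 0.32), BNC1 (0.76 ± 0.22) and EZR (1.46 ± 0.30), all higher in GOM in both measures. CD22 went apart, with an expression higher in GOM and an index lower in GOM (-0.93 ± 0.24). The median index difference was 0.73 over 9 mesothelial genes and 0.36 over 11 complement genes, but -0.01 over 18 macrophage genes, 0.02 over 15 lipogenic genes and 0.05 over 11 smooth muscle genes.

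H3K27ac, a histone mark of active enhancers, was available as regions stitched by ROSE from pooled samples, 3 of GOM and 1 of MAD, so it is described without a test. There were 20169 regions for GOM and 20646 for MAD. Within 10 kb of the gene body, 94.9% of 10430 tested PCGs had a region in both depots, 2.16% in GOM only and 1.41% in MAD only. Among DEGs higher in GOM these shares were 91.3, 4.56 and 2.9%, and among DEGs higher in MAD 92.8, 2.39 and 2.69%. The median summed signal after subtraction of input was 7039.8 in GOM and 3791 in MAD over all tested PCGs, 13971 and 4391 over DEGs higher in GOM, and 4462 and 3319 over DEGs higher in MAD. The GOM and MAD scales differed, so a gene is read against these medians.

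Signals at single genes are given in the same way. At GATA5 the signal was 51030.4 in GOM and 1938 in MAD, at ISL1 10803 and 211, at BNC1 41580 and 770, at UPK1B 31784 and 3069, and at LGR5 10371 and 690.3. WT1 had 81065 and 27077. ST6GAL2 had a region in GOM alone. NKX2-3 had a region in MAD alone, with a signal of 4770.4. GADL1, an amino acid decarboxylase higher in GOM (log2 fold change 5.29 ± 0.71), was an exception, with 15336 in GOM and 60587 in MAD.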

How the data were processed

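Total RNA depleted of ribosomal RNA was sequenced by the authors from whole adipose tissue, and estimated counts per PCG were made with kallisto 0.43.0 and summed per gene against Sscrofa11.1. The deposited estimated counts were rounded to whole numbers before testing, and the TPM values deposited by the authors gave the levels and the filter. The A-B index is a score per 20-kb bin that the authors derived from Hi-C matrices, made from the adipocyte layer of fixed tissue. The H3K27ac signal of stitched regions was deposited by the authors for pooled samples after alignment with BWA 0.7.15 and SAMtools 1.3.1; input signal was subtracted here.

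PCGs were kept if, in 1 depot, 80% or more of its libraries exceeded 0.5 TPM, and were tested with edgeR 4.0.16 (quasi-likelihood, TMM) in R 4.3.3, with depot and library set as terms and Benjamini-Hochberg adjustment over all 14197; list counts use these p-values. Bins were tested with limma 3.58.1, and DESeq2 1.42.0 was an alternative. Scripts were tested on simulated data. Errors are SEs. Depth was 7835504 to 21140387 PCG counts per library, and read sampling limits PCGs of low count most. The labels do not say which library came from which pig, so the depots of a pig were not matched, and the p-values treat libraries as independent. With the replicate number as a block and the set term, 399 of 632 DEGs higher in GOM and 288 of 431 higher in MAD kept their call. No pair of libraries of a depot agreed within sampling noise.

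The 12 PCGs with the largest difference in each direction at 1 TPM or more were named. So were up to 4 called members of each of 27 gene lists, factors that the study discusses, and tested genes in the 5 longest switch runs. DYRK4, which starts in a run of 4 bins switched to A in MAD, stayed below the expression filter. Further called list members are named only to account for a count, after their values were seen. A listed gene is not reported here. The members and lists were chosen with earlier results of these data known. In the tables, 9 RNA and 9 index columns matched no sample and were not used. Of 21280 PCGs, 14821 had a symbol and 13512 a RefSeq position, by which promoters, bins and regions were assigned.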

Additional observations from a re-analysis of the deposited data

Results flagged for a closer look

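Dixon's criterion is met by chance in about 1 group of 20 where values are normally distributed, which was not tested for TPM. By it, the highest GOM library stood apart from the other 8 in 14 of 86 named genes. GOM replicate 5 was that library for 8 genes, with 29.9 TPM for GATA5, 32.4 TPM for SERPINB2, 1397 TPM for THRSP, 556 TPM for CLU, 4326 TPM for FN1, 522 TPM for CFI, 1515 TPM for C3 and 179.6 TPM for CFB. Replicate 8 was highest for GADL1 at 27.7 TPM, PI16 at 73.1 TPM and TIMD4 at 54.1 TPM. MFAP5 reached 193 TPM in replicate 3, JCHAIN 2311 TPM in replicate 6 and UCHL1 57.4 TPM in replicate 2. The MAD libraries were not checked by this criterion. Single MAD libraries also stood high: ACTG2 was at 3814 TPM and MYH11 at 5531 TPM in MAD replicate 1. The next highest values, in MAD replicate 5, were 779 and 1477 TPM.

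For 30 of the 86 named genes the depot difference on the normal diet differed from that in WG. The test was the edgeR interaction test with the set term, at an adjusted p below 0.05. It called 15.2% of all 14197 PCGs, 227 of the 632 DEGs higher in GOM and 190 of the 431 higher in MAD. Most named genes were chosen by their NC differences, which enter this test, so the count of 30 is no result about them. In the values that follow, the WG log2 fold change is subtracted from that on the normal diet. Among immune genes these were 3.86 for JCHAIN, 1.44 for BANK1, 1.20 for CD22, 1.54 for TRAT1, 1.38 for CD3E, 1.22 for TNFSF13B, 3.47 for TIMD4, 1.98 for C1QB and 1.14 for VSIG4. In genes of smooth muscle or high in the same MAD libraries they were -5.21 for PCP4, -2.82 for ACTG2, -2.33 for KCNMB1, -2.82 for DES, -2.04 for CNN1, -2.41 for DGKB, -2.12 for MYH11, -2.35 for FHOD3, -2.34 for MYLK and -2.30 for ASB2. Among transcription factors they were -1.91 for BARX1, -2.08 for BNC1, -1.39 for NKX2-3 and -1.43 for FOXF1. The others were 2.60 for GADL1, -2.17 for SERPINE3, 1.34 for DHRS9, -1.96 for DGAT2, 0.71 for DCN, 0.97 for CLU and 1.75 for FN1. In libraries at or above 88% alone, with 2 NC GOM libraries, the interaction test called 0 of 14197 PCGs. That none of the 30 was called there therefore says nothing about these genes in particular.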

How the results depend on the processing

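The numbers of DEGs higher in GOM and in MAD, 632 and 431, moved most with the treatment of the library sets. They were 1453 and 1064 with no set term, 197 and 10 in libraries at or above 88%, 74 and 55 in libraries below 88%, and 1613 and 1163 with the edgeR exact test and no set term. With the PCG share as a covariate they were 715 and 650, and with DESeq2 820 and 722. Leaving out 1 library gave 223 to 766 and 88 to 666, lowest without GOM replicate 6 and highest without MAD replicate 1. Without MAD replicates 1, 5, 6 and 8 they were 707 and 674. Leaving out MAD replicate 1, GOM replicate 5, or those 4 MAD libraries was chosen after seeing the data. Normalization by RLE gave 645 and 398, no filter 574 and 373, and a 1 TPM filter 634 and 429. The 82 named DEGs gave 1468 values under these alternatives, all in the same direction, and 1181 remained called. The 82 were chosen from calls of the main fit, and the alternatives refit the same libraries or part of them. Their shared direction is thus no separate evidence for these genes.

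The labels do not tie replicate numbers to pigs, and the correlation of deviations between same-numbered libraries did not pass 0.1 in every pair. The main test therefore did not pair them. In the median, same-numbered libraries still correlated more than other pairs, at 0.149 against -0.0238 for expression and 0.124 against 0.00414 for the index. Pairing by number is thus possible, and the main p-values do not account for it. The correlation passed 0.1 in 5 of 9 pairs for expression and 5 of 9 for the index. With the set means removed it did so in 8 of 9 for expression (0.0748 to 0.321, median 0.183, against -0.0202 for other pairs). In these checks 4, 3 and 6 libraries correlated best with their own number. With the number as a replicate block, the DEGs were 668 and 693 with the set term and 1289 and 711 without it. With the set term, 399 of the 632 and 288 of the 431 DEGs kept their call, as did 56 of the 82 named DEGs. With the block the variables were 3055 and 3777. TCF21 (0.066) and NTF3 (0.35), neither of them called, turned positive with the block and the set term; the cause was not tested. Switches to A in GOM and in MAD were 317 and 771 at over 70% of samples, 8 and 39 at over 90%, and 141 and 179 after quantile normalization. Variables were 4648 and 7444 at a difference above 0.5, and 1539 and 2105 at an adjusted p below 0.01. The interaction called 2164 PCGs, 872 with no set term and 0 in libraries at or above 88% (edgeR; 2150 at an unadjusted p below 0.05). With no flank, 34 DEGs higher in GOM had an H3K27ac region in GOM only, against 22. Except where a setting removes samples or changes the limit itself, the cause of these shifts was not tested.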
